A study of Mus musculus with 3 samples.

Results

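The G1/S cell cycle regulators examined here are 10 genes, namely Ccnd1, Ccnd2, Ccnd3, Ccne1, Cdk6, E2f1, E2f3, Rb1, Cdkn1a and Cdkn1b, out of 21021 protein-coding mouse genes with an annotated 3′UTR. They were taken by name from the GENCODE M21 annotation of GRCm38, and each was found once. The rule for choosing them uses no measured value, but they were proposed with earlier results of these data known. For each gene, peaks of Argonaute 2 (Ago2) binding on the strand of the gene were sorted by transcript part and by library, and the 3′UTR was searched for seed matches of the miR-15/16, miR-17 and let-7 families.

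The peaks came from HITS-clip, an assay in which bound RNA is crosslinked to protein by ultraviolet light, recovered with an antibody to Ago2 and sequenced. All 3 libraries were from N2A cells, a mouse neuroblastoma line, left untreated and irradiated at 80% confluency once at 400 and 2 times at 200 mJ/cm2, and all were recovered with the anti-Ago2 antibody clone 2D4. They formed 1 group, replicates 1, 2 and 3, and the labels do not say whether these were separate cultures, so the spread given below may be technical. With 1 group, no test between conditions was possible, and the values are descriptions.

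The table held 711377, 498071 and 829936 peaks for replicates 1, 2 and 3, as intervals without read counts, so the read depth is unknown. A gene without a peak is therefore not shown to lack Ago2. The amount of a transcript and the share of it held by Ago2 cannot be told apart from a peak. Peaks of up to 85 nt made up 71.5%, 61.4% and 52.8% of replicates 1, 2 and 3. Of 11 neural and neuroblastoma marker genes, 8, 10 and 10 had a 3′UTR peak in replicates 1, 2 and 3, and 8 had one in every library, all but Tubb3, Chga and Nefm. Of 20 markers of microglia, astrocytes, oligodendrocytes, endothelial cells and fibroblasts, 6, 4 and 4 had one. In every library this held for 1 of the 20, Mbp, which marks oligodendrocytes. Of all 21021 genes, 34.8%, 44.7% and 48.4% had a 3′UTR peak in replicates 1, 2 and 3, and 23.9% had one in every library.

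Entry into S phase is set by the retinoblastoma protein, the product of Rb1, which holds E2F transcription factors inactive. D-type cyclins with Cdk6 or Cdk4, and later cyclin E with Cdk2, phosphorylate it, the E2F factors are released, and genes for DNA replication are transcribed. The inhibitors p21 (Cdkn1a) and p27 (Cdkn1b) bind and restrain these kinases. Several of these transcripts are textbook targets of miRNAs, which guide Ago2 to short matches in 3′UTRs.

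The 3 miRNA families searched are shown by their mature sequences, since the bases in capitals, positions 2 to 8 or the seed, decide which 3′UTR stretches count as matches. Sequences and coordinates are those of RefSeq on GRCm38.p6. All members of a family share the seed and differ in the bases outside it.
miR-16-5p: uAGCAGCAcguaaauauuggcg
miR-15a-5p: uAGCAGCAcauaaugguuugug
miR-322-5p: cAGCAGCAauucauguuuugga
miR-17-5p: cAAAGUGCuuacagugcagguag
miR-20a-5p: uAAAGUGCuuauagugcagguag
miR-93-5p: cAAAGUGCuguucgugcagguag
let-7a-5p: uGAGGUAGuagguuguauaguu
In the DNA letters of a 3′UTR, the 7-nt match reads TGCTGCT for miR-15/16, GCACTTT for miR-17 and CTACCTC for let-7. Only the transcribed strand was searched. A match followed by an A is called an 8mer. Of the 13936 genes whose 3′UTR length lay in the range of the 10 genes (531 to 10217 nt), 27.7% held a miR-15/16 match, 16.6% a miR-17 match and 12.4% a let-7 match.

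The miRNA genes themselves carried peaks. Among 11 loci with the miR-15/16 seed, the mature arm lay under the inner part of a peak in all 3 libraries at 4, Mir15a, Mir195a, Mir322 and Mir497. The arm of miR-16-5p had no such peak in any library at either Mir16-1 or Mir16-2. The hairpin had a peak in replicates 1 and 3 at Mir16-1 and in replicate 1 at Mir16-2. Both loci encode the same mature sequence, and let-7c-5p and let-7f-5p, each also encoded at several loci, had no arm peak either. How reads that map to several loci were treated is not known here, so miR-16-5p is not shown to lack Ago2. For the miR-17 seed, 3 of 7 loci had an arm peak in every library, Mir17, Mir20a and Mir93. For the let-7 seed this held at 4 of 13 loci, Mirlet7d, Mirlet7g, Mirlet7i and Mir98. Loci of other families, Mir21a, Mir34a, Mir221 and Mir222 among them, also had an arm peak in every library. The share over all miRNA loci was not computed, so these counts do not set the 3 families apart. A peak over an arm does not measure the amount of the miRNA and does not separate it from its precursor.

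The 10 genes carried 206, 247 and 413 same-strand peaks in replicates 1, 2 and 3. The midpoint lay in the 3′UTR for 44 of 206 peaks in replicate 1 (21.4%, 95% Wilson interval 16.3 to 27.5%), for 117 of 247 in replicate 2 (47.4%, 41.2 to 53.6%) and for 124 of 413 in replicate 3 (30%, 25.8 to 34.6%). The mean was 32.9 ± 13.2% (SD, n = 3). Replicate 2 was highest and replicate 1 lowest, and the intervals of replicates 1 and 3 overlapped. These intervals cover the counting of peaks only. Over all protein-coding genes the same share was 7.08%, 24.1% and 12.5%, with the libraries in the same order. On the opposite strand of the 10 genes, 86, 50 and 80 peaks were found, of which 4.66 ± 2.51% (n = 3) lay in the 3′UTR. Over all protein-coding genes the opposite-strand share was 3.36%, 4.04% and 3.94% in replicates 1, 2 and 3.

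Coding sequence held 8, 34 and 38 of the same-strand peaks and 5′UTRs held 3, 8 and 10. Introns held 148, 87 and 235, the largest number in replicates 1 and 3. Most intronic peaks lay in 3 of the genes. Rb1 had 44, 35 and 100 of them, E2f3 had 54, 21 and 56, and Ccnd3 had 25, 11 and 35.

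**Figure D1:**
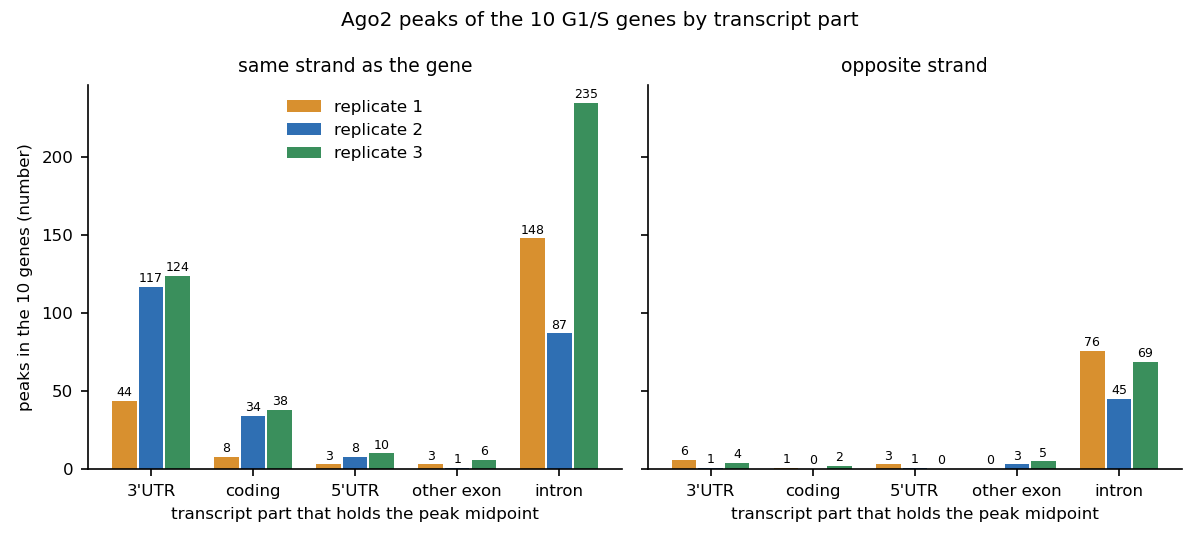
Number of Ago2 peaks (y axis) in the 10 G1/S genes by the transcript part that holds the peak midpoint (x axis), on the strand of the genes and on the opposite strand, with 1 bar per library. On the gene strand, 3′UTR peaks number 44, 117 and 124 in replicates 1, 2 and 3, against 6, 1 and 4 on the opposite strand.

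A same-strand peak touched the 3′UTR in every library for 7 of the 10 genes, Ccnd1, Ccnd2, E2f1, E2f3, Rb1, Cdkn1a and Cdkn1b. The same held for 23.9% of all 21021 genes and for 33% of the 13936 genes of like 3′UTR length. Here and below, like length means any 3′UTR of 531 to 10217 nt, the range of the 10 genes, and not a length near that of a single gene. Ccnd3 and Ccne1 had no 3′UTR peak in replicate 1, and Cdk6 had none in replicate 2. With replicates 2 and 3 alone, 9 of 10 genes had peaks in both, against 47% of genes of like length. On the opposite strand, the 3′UTR was touched by peaks of every library in none of the 10 genes and in 3.61% of genes of like length. The proportion of genes with a peak in every library was 2.88% in the shortest of 5 equal classes of 3′UTR length and 51% in the longest, to which 5 of the 10 genes belong.

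In 6 of the 10 genes, peaks of all 3 libraries met over a stretch of at least 8 nt, called a common region here. Such a region was present in 14.3% of all genes and in 19.6% of those of like length. There were 22 regions, with a median length of 79 nt, from 19 to 405 nt, and 2092 nt in all. Cdkn1b held 10 of them, E2f3 held 5, Ccnd1 held 3, Cdkn1a held 2, and Ccnd2 and Rb1 held 1 each. E2f1 had peaks in every library but no stretch in common. By position, 7 regions had their centre in the stop-codon end of the 3′UTR, 9 in the middle and 6 in the far end when each 3′UTR was cut into 3 equal lengths. The number of regions depended on the rule, with 63 when replicate 1 was left out and 6 when only peaks of 86 to 200 nt were used.

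**Figure D2:**
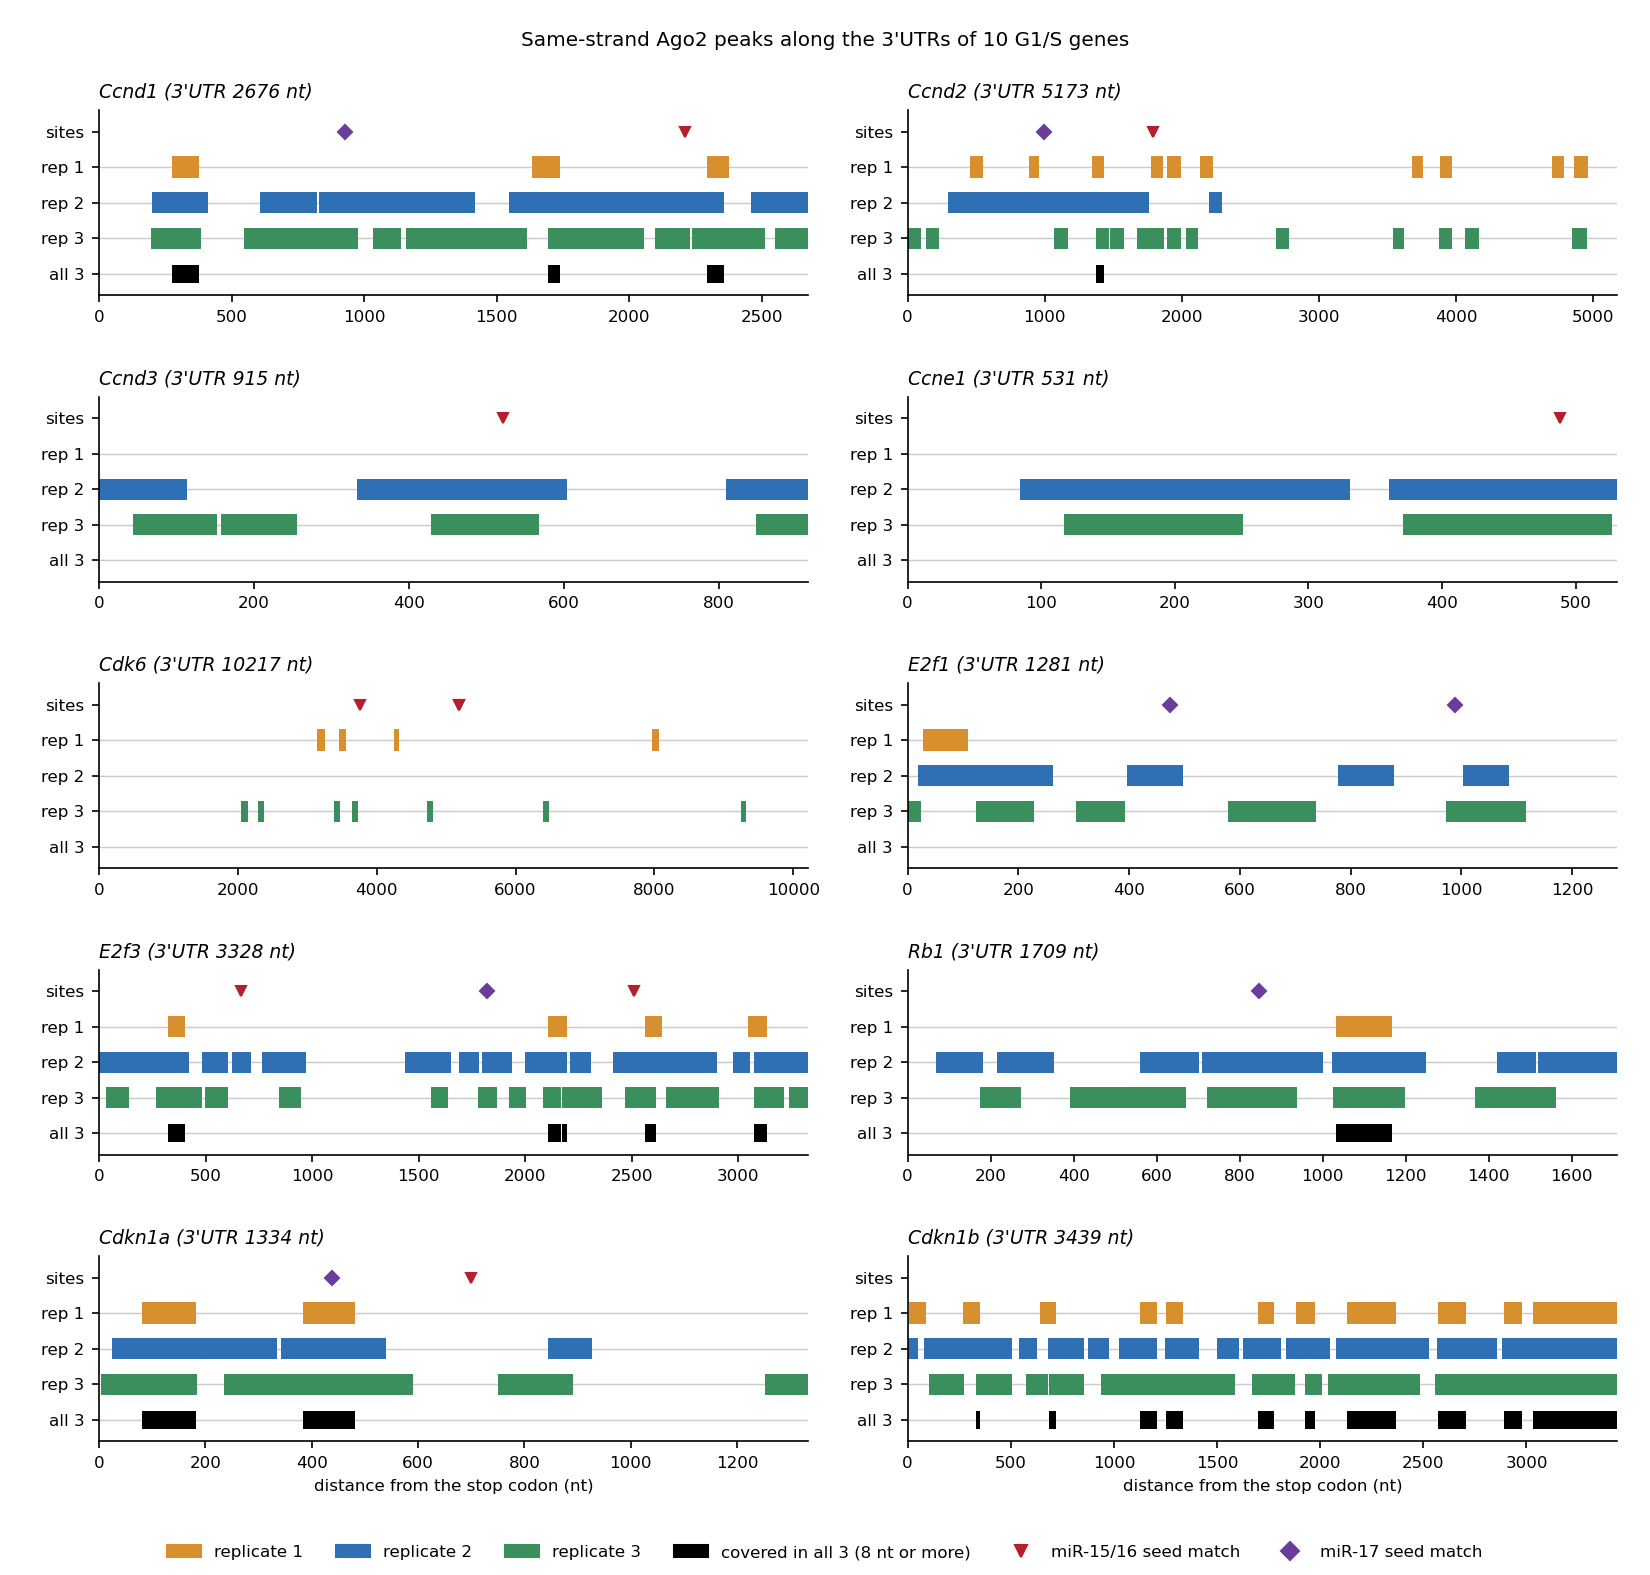
Map of the 3′UTR of each of the 10 genes, with distance from the stop codon in nt on the x axis (a scale of its own per gene). Coloured blocks are stretches under same-strand peaks in replicates 1, 2 and 3, black blocks are common regions, triangles are miR-15/16 and diamonds miR-17 matches of 7 nt or more (2 overlapping matches in Cdk6 appear as 1 triangle). Of the 22 black blocks 10 lie in Cdkn1b, and 1 of the 17 marks, the miR-17 match of Cdkn1a, stands over a black block.

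The covered proportion of the 3′UTR was lowest in replicate 1 for 9 of the 10 genes, all but Cdk6. Over the 30603 nt of the 10 3′UTRs, 12.4%, 40% and 37.8% lay under peaks in replicates 1, 2 and 3, a mean of 30.1 ± 15.3% (n = 3). The deposited peaks were read as padded by 30 nt on each side, which no source used here states, and with these 30 nt trimmed the mean was 17.3 ± 11.1%. The median over the 10 genes was 9.06%, 61.8% and 52.5%, and over genes of like length it was 0%, 4.06% and 5.5%. By mean coverage the order was Cdkn1b (71 ± 25.1%), Ccnd1 (54.9 ± 38.1%), Rb1 (44.8 ± 32.6%), Ccne1 (44.4 ± 40.3%), E2f3 (44.4 ± 31.7%), Cdkn1a (38.6 ± 21.3%), Ccnd3 (32.9 ± 28.8%), E2f1 (29.5 ± 20%), Ccnd2 (24.7 ± 6.47%) and Cdk6 (3.31 ± 3.07%), each with SD and n = 3. Neighbours in this order lay within each other's spread, except Ccnd2 and Cdk6, whose libraries did not overlap (17.6 to 30.2% against 0 to 6.07%). Cdkn1b had the highest value of the 10 in each of the 3 libraries.

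**Figure D3:**
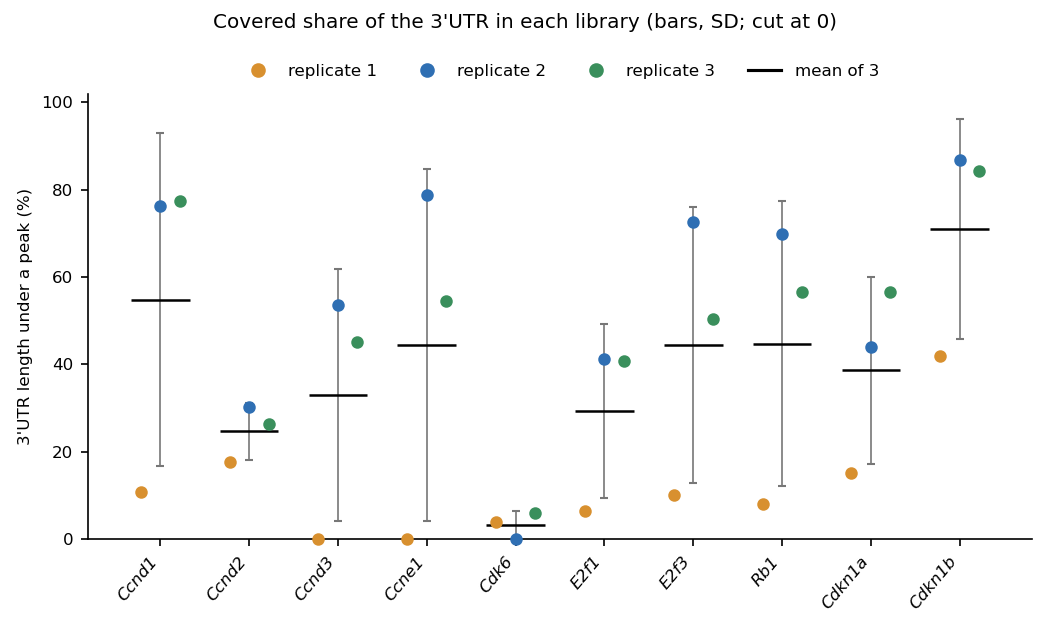
Percent of the 3′UTR length under same-strand peaks (y axis) for each of the 10 genes (x axis). Points are the libraries, black lines the mean of 3 and grey bars the SD, cut at 0. Cdkn1b is highest in each library, at 42, 86.8 and 84.2%, and replicate 1 lies below the other libraries in every gene but Cdk6.

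**Figure D4:**
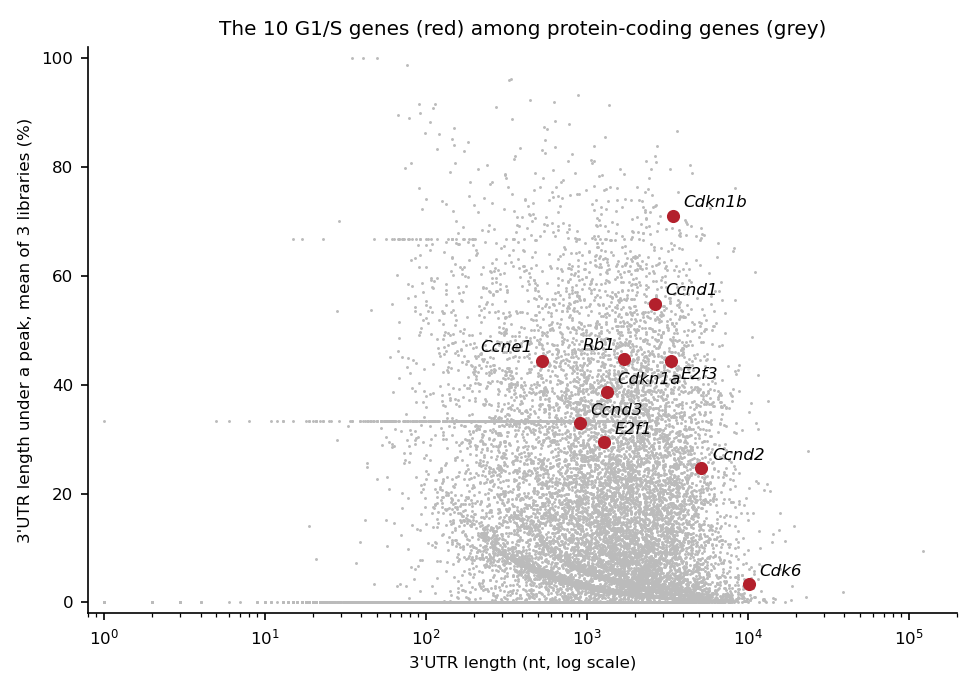
Mean percent of the 3′UTR under same-strand peaks over 3 libraries (y axis) against 3′UTR length on a log scale (x axis), with the 10 genes in red and all protein-coding genes in grey, 1 point per gene. Cdkn1b stands at 71% and Cdk6, the longest of the 10 at 10217 nt, at 3.31%.

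Cyclin D1, encoded by Ccnd1, is the partner of Cdk4 and Cdk6 that links growth signals to the cycle. Its 3′UTR of 2676 nt (chr7:144929931-144932606, minus strand, 1 exon) had 3, 23 and 22 peaks in replicates 1, 2 and 3, which covered 10.9%, 76.3% and 77.4% of it. Replicates 2 and 3 were close to each other and shared 1770 nt, while replicate 1 was far lower. Its coverage was above that of 81.9%, 96.1% and 96.5% of the genes with a 3′UTR of 531 to 10217 nt. The 3 common regions lay 277 to 378, 1695 to 1740 and 2296 to 2357 nt after the stop codon. On the opposite strand, where the gene LTO1 overlaps, coverage was 3.77%, 3.44% and 0%.

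Ccnd1 held 1 match of 7 nt to each of miR-15/16 and miR-17, and no such match to let-7. Both are printed in 30-nt windows with the match in capitals, because both lay under peaks in replicates 2 and 3 and under none in replicate 1.
Ccnd1 miR-17 match: accattccatttcaaaGCACTTTtggtcag
Ccnd1 miR-15/16 match: gttgtgcatgccaccaTGCTGCTggcccgg
The miR-17 match (chr7:144931676-144931682) was near the middle of its peaks, 1 nt from the centre of a 127-nt peak in replicate 2 and 6 nt from that of a 109-nt peak in replicate 3. The miR-15/16 match (chr7:144930395-144930401) lay nearer the edges, 22.5 nt or more from every peak centre. A shorter miR-15/16 match, 6 nt followed by an A at 1731 nt after the stop codon, was inside a common region.

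Ccnd2, which encodes cyclin D2, has a 3′UTR of 5173 nt (chr6:127125162-127130334, minus strand). It had 10, 2 and 14 peaks and a coverage of 17.6%, 30.2% and 26.3% in replicates 1, 2 and 3. The value of replicate 2 came mostly from a single peak of 1469 nt, the widest over any of the 10 3′UTRs on the gene strand. On the opposite strand, where the gene Gm43126 overlaps, peaks covered 84.8% of the 3′UTR in replicate 1, all from 1 peak of 5199 nt, and 0% in the other libraries. The part of such wide peaks in the result was not tested.

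The Ccnd2 3′UTR carried an 8mer for miR-15/16 at 1787 nt after the stop codon (chr6:127128542-127128548). It lay under peaks of 90 and 95 nt in replicates 1 and 3, at 29.5 and 32 nt from their centres. In replicate 2 the wide peak stopped short of it. A miR-17 match at 989 nt was covered in replicate 2 alone, by that same peak. The common region of Ccnd2, 63 nt long and 1373 to 1435 nt after the stop codon, held an 8mer for miR-26, and it too rested on the wide peak in replicate 2. The A that completes each 8mer is among the capitals.
Ccnd2 miR-15/16 8mer: gtaatgtttcacggtgTGCTGCTAttttag
Ccnd2 miR-26 8mer: aaagttgtattcattgTACTTGAAgacccc

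Ccnd3 encodes cyclin D3. Its 3′UTR of 915 nt (chr17:47598777-47599691, plus strand) had 0, 6 and 4 peaks, with coverage of 0%, 53.7% and 45.1% in replicates 1, 2 and 3. Replicates 2 and 3 shared 277 nt in 3 stretches. One of these held the only 7-nt match of the 3 families, a miR-15/16 match at 518 nt (chr17:47599294-47599300), 22.5 to 31.5 nt from the centres of its peaks. Replicate 1 was without a 3′UTR peak here but had 25 intronic peaks in the same gene.
Ccnd3 miR-15/16 match: acactgttgctttgctTGCTGCTtagcttc

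Ccne1, the gene of cyclin E1, had the shortest 3′UTR, 531 nt (chr7:38097984-38098514, minus strand). It carried 0, 4 and 3 peaks, which covered 0%, 78.7% and 54.6%. All 290 nt covered in replicate 3 were also covered in replicate 2. The 8mer for miR-15/16 at 485 nt after the stop codon (chr7:38098024-38098030), 40 nt before the annotated end, lay in the inner part of a peak in both of these libraries, at 25 and 23.5 nt from the centre.
Ccne1 miR-15/16 8mer: actcttattttgtaagTGCTGCTAtgtcta

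Cdk6, the kinase that D-type cyclins activate, stood apart from the cyclins. Its 3′UTR was the longest, 10217 nt (chr5:3520792-3531008, plus strand), and had 4, 0 and 7 peaks with coverage of 3.87%, 0% and 6.07%. This was above the coverage of 62.6% of the genes with a 3′UTR of 531 to 10217 nt in replicate 1, of 0% in replicate 2 and of 51% in replicate 3. Cdk6 has the longest 3′UTR of this range, so the genes it is ranked among have shorter ones. It held 3 miR-15/16 matches, and none of them was under a peak in any library. They are an 8mer at 3754 nt (chr5:3524545-3524551) and an overlapping pair of 7-nt matches at 5177 and 5180 nt (chr5:3525968-3525977). Their windows are shown because the same seed match lay under peaks in the cyclin genes.
Cdk6 miR-15/16 8mer: cccaagttgcacagggTGCTGCTAtctcaa
Cdk6 first of the overlapping pair: taataaagtgccaaatTGCTGCTgcttctt

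E2f1 and E2f3 encode transcription factors that switch on replication genes. The E2f1 3′UTR (1281 nt, chr2:154559407-154560687, minus strand) had 1, 5 and 7 peaks and coverage of 6.4%, 41.2% and 40.7% in replicates 1, 2 and 3. Although replicates 2 and 3 covered almost equal lengths, they shared only 189 nt, or 14.8% of the 3′UTR. E2f1 had 2 miR-17 matches, of which the one at 470 nt lay under a peak in replicate 2 alone and the one at 985 nt in replicate 3 alone.
E2f1 miR-17 match at 470 nt: ggggtgggctctaactGCACTTTtggtgtc
E2f1 miR-17 match at 985 nt: ccccaccctccagtctGCACTTTgatttgt

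The E2f3 3′UTR (3328 nt, chr13:29906575-29909902, minus strand) was covered more densely, with 4, 30 and 19 peaks over 10.2%, 72.6% and 50.5% of its length. Opposite-strand coverage was 0% in replicates 1 and 2 and 16.9% in replicate 3, mainly from a peak of 6683 nt. All 4 peaks of replicate 1 overlapped a common region, and the 5 regions of E2f3 lay 326 to 404, 2109 to 2167, 2173 to 2196, 2563 to 2613 and 3076 to 3132 nt after the stop codon. Matches to both families were present, each as an 8mer. The miR-17 8mer at 1819 nt (chr13:29908078-29908084) lay 16.5 and 0.5 nt from the peak centre in replicates 2 and 3. The miR-15/16 8mer at 2509 nt (chr13:29907388-29907394) lay 1.5 and 2.5 nt from the centre of the nearer of 2 peaks in these libraries. Neither was under a peak in replicate 1. Another miR-15/16 match, at 661 nt, was covered in replicate 2 alone.
E2f3 miR-17 8mer: gagacagaagacaccgGCACTTTAaactct
E2f3 miR-15/16 8mer: cctggtaccattgagtTGCTGCTActaaaa

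Rb1 encodes the protein that restrains E2F factors. Its 3′UTR (1709 nt, chr14:73195502-73197210, minus strand) had 2, 14 and 13 peaks and coverage of 7.96%, 69.9% and 56.5%. Both peaks of replicate 1 fell together in 1 stretch, and this stretch, 1033 to 1168 nt after the stop codon, was covered in the other libraries as well. No peak lay on the opposite strand of this 3′UTR in any library, although the gene Rcbtb2 overlaps there. The single miR-17 match at 844 nt (chr14:73196361-73196367) was under peaks in replicates 2 and 3, 6 nt from the centre of a 93-nt peak in replicate 2 and 35 and 56 nt from the centres of 2 peaks in replicate 3. An 8mer for miR-26 at 780 nt was covered in the same libraries.
Rb1 miR-17 match: acagtacaacccaagtGCACTTTttaatgt
Rb1 miR-26 8mer: ataagtacccatgtagTACTTGAAagtcaa

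Cdkn1a, the gene of the kinase inhibitor p21, had 2, 7 and 10 peaks in its 3′UTR of 1334 nt (chr17:29099394-29100727, plus strand). Coverage was 15.1%, 44.1% and 56.7% in replicates 1, 2 and 3. Both peaks of replicate 1 were wholly covered in the other libraries and made up the 2 common regions, 81 to 182 and 384 to 482 nt after the stop codon. The second region held the miR-17 match at 436 nt (chr17:29099829-29099835), the one 7-nt match of the 3 families under peaks in all 3 libraries. It lay 6 nt from the peak centre in replicate 1, 33 nt in replicate 2, and 23 and 41 nt from the centres of 2 peaks in replicate 3. The match was in the inner part of its peak in replicate 1 alone, and with every peak trimmed by 30 nt on each side 0 miR-17 matches of the 10 genes lay in common regions. A miR-15/16 match at 696 nt was under no peak.
Cdkn1a miR-17 match: tcctcagacctgaataGCACTTTggaaaaa
Cdkn1a miR-15/16 match: ggttaatctggtgatcTGCTGCTcttttcc

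Cdkn1b, the gene of the kinase inhibitor p27, had the densest coverage of the 10 genes. Its 3′UTR of 3439 nt (chr6:134922075-134925513, plus strand) carried 18, 27 and 26 peaks over 42%, 86.8% and 84.2% of its length. This exceeded the coverage of 97.2%, 97.8% and 97.7% of the genes with a 3′UTR of 531 to 10217 nt. The 10 common regions summed to 1212 nt, or 35.2% of the 3′UTR, and the longest, 405 nt, ran to the annotated transcript end. A or T made up 66.7% of the common regions and 62.3% of the whole 3′UTR. Of the other 5 genes with common regions, the share of A or T was higher in the regions than in the whole 3′UTR in Ccnd2 and Cdkn1a, and lower in Ccnd1, E2f3 and Rb1. On the opposite strand coverage was 0% in replicates 1 and 2 and 60% in replicate 3, from peaks of 3033 and 3601 nt.

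Cdkn1b had no 7-nt match to any of the 3 families. In its common regions lay 8mers of 2 other families, and both were under peaks in every library. One of them, miR-221 with miR-222, is a known repressor of p27. The miR-221 8mer at 2357 nt (chr6:134924431-134924437) was in a region of 239 nt. The miR-24 8mer at 3351 nt (chr6:134925425-134925431) was in the terminal region of 405 nt. At the miRNA genes, the mature arm had a peak in all 3 libraries at Mir221 and Mir222. The arm of miR-24-3p had none in any library at Mir24-1 or Mir24-2, which encode the same mature sequence. The mature sequences are printed first, with the seed in capitals.
miR-221-3p: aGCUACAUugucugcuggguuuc
Cdkn1b miR-221 8mer: cctctaaaagcattggATGTAGCAttgcgc
miR-24-3p: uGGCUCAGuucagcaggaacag
Cdkn1b miR-24 8mer: cttaaaaggttgcataCTGAGCCAagtata
Over all 3′UTRs, 1.96% of miR-221 matches, 0.841% of miR-24 matches and 3.23% of miR-26 matches lay in common regions. Within the 10 genes this held for 1 of 4, 1 of 3 and 1 of 5, the families of the 9 with a match in a common region. The long covered length of Cdkn1b stands beside these counts, and its part in them was not tested.

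Across the 10 genes, 7 held a miR-15/16 match, 6 a miR-17 match and none a let-7 match of 7 nt. Of 10 miR-15/16 matches, 1, 5 and 5 were under a peak in replicates 1, 2 and 3, or 10%, 50% and 50%. Of 7 miR-17 matches it was 1, 6 and 5, or 14.3%, 85.7% and 71.4%. Over all 3′UTRs the shares were 7.52%, 21.6% and 19.1% for miR-15/16 and 9.89%, 30% and 25.4% for miR-17. Both families together gave 2, 11 and 10 of 17 matches, or 11.8% (95% Wilson interval 3.29 to 34.3%), 64.7% (41.3 to 82.7%) and 58.8% (36 to 78.4%). Cdkn1b held none of the 17, and 8.66%, 34% and 31.9% of the length of the other 9 3′UTRs lay under peaks, inside the interval of the matches in replicate 1 and below it in replicates 2 and 3. With each match given the covered share of its own 3′UTR, the mean over the 17 was 8.82%, 47.3% and 42.8%, inside the interval in each library. The interval treats the 17 matches as independent. Matches of the same gene, such as the overlapping pair in Cdk6, are not, so it may be too narrow for these comparisons.

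Under peaks in both replicates 2 and 3 were 4 of 10 miR-15/16 matches, in Ccnd1, Ccnd3, Ccne1 and E2f3, against 10.1% of all such matches. For miR-17 it was 4 of 7, in Ccnd1, E2f3, Rb1 and Cdkn1a, against 16.5%. In common regions of all 3 libraries lay 0 of 10 miR-15/16 matches, against 2.05% of all, and 1 of 7 miR-17 matches, against 3.79%. For let-7 there was no match to all of seed positions 2 to 8, and over all 3′UTRs 1.79% of such let-7 matches lay in common regions. Matches of 6 nt to let-7 numbered 7 in 5 of the genes. Each was followed by an A, a type of site that the 7-nt counts here leave out. Of these 7, 2 were under peaks in replicates 2 and 3, in Ccnd1 and Rb1. The 29 peaks that spanned a miR-15/16 or miR-17 match held it in their inner part, without the outer 30 nt on each side, in 12 cases. For the 27 of these peaks of up to 200 nt, the match lay at a median of 24.5 nt from the centre.

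Among 9 other families the 10 genes held 31 matches, in 8 of the genes, and 4, 12 and 12 were under a peak in replicates 1, 2 and 3. Over all 3′UTRs 6.45%, 17.8% and 17% of the matches of these families were. The shares in the 10 genes, 12.9%, 38.7% and 38.7%, were near the covered length of the 8 3′UTRs that held the matches, 13.1%, 39.5% and 37.4%. In common regions lay 3 of the 31, against 1.72% of all, and the families miR-34, miR-19, miR-29, miR-125 and miR-21 had 0 of 6, 0 of 3, 0 of 6, 0 of 2 and 0 of 2 there. The 3 were the 8mers of Ccnd2 and Cdkn1b printed above, and miR-9 had no match of 7 nt. Of the 6 miR-34 matches, 4 lay in Cdk6 and 2 in E2f3, and the E2f3 8mer at 2732 nt was covered in replicates 2 and 3.

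Outside the 3′UTR, stretches where the peaks of every library met over at least 8 nt numbered 6 in coding sequence and 3 in introns, beside 22 in 3′UTRs. These counts are not corrected for length, and 10 of the 22 lay in Cdkn1b alone. Coding sequence measured 480 to 2766 nt per gene and 3′UTRs 531 to 10217 nt. The share over all genes was not computed for coding sequence or introns. Rb1 had 2 coding stretches, of 54 and 81 nt, and an intronic one of 86 nt close to the second. Ccnd2, Ccnd3, Ccne1 and Cdkn1b had 1 coding stretch each, and that of Cdkn1b, 85 nt, ended at chr6:134922030, upstream of the 3′UTR. Ccnd3 and Ccne1 therefore had coding but no 3′UTR stretches in common. The other intronic stretches were in Ccnd2 and E2f3. On the opposite strand of the 10 genes there was 1 such stretch, in an intron of Rb1.

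Other genes of the G1/S transition were looked at by a list of 24. A 3′UTR peak was present in 17, 21 and 22 of them in replicates 1, 2 and 3, and in every library in 16. That is 16 of 24, beside 7 of the 10 genes. Of all genes 34.8%, 44.7% and 48.4% had such a peak, and 23.9% had one in every library. A common region was found in 12, against 14.3% of all genes, namely Cdk4, Ccne2, Ccna2, E2f2, E2f4, E2f5, Rbl1, Tfdp2, Skp2, Fbxw7, Wee1 and Myc. The longest totals were 432 nt in E2f2, an E2F activator, 336 nt in Skp2, which directs p27 to degradation, and 267 nt in Ccne2, the gene of cyclin E2. Coverage of Ccna2, the gene of cyclin A2, was 13%, 85.4% and 85.5%. In Myc, a transcription factor that drives growth, it was 21.9%, 100% and 98.1%. No library had a 3′UTR peak for the kinase inhibitors Cdkn1c and Cdkn2b, while Cdkn2a, Cdkn2c and Cdkn2d had peaks in replicates 2 and 3 only.

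**Figure D5:**
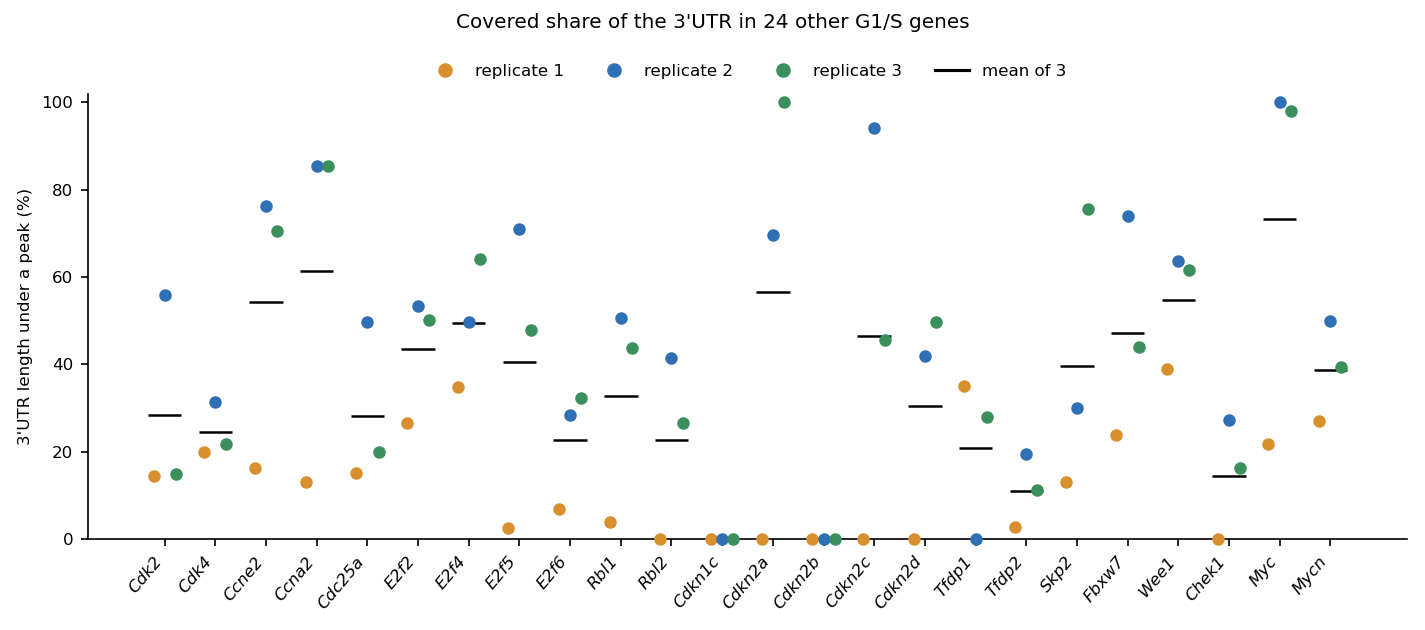
Percent of the 3′UTR length under same-strand peaks (y axis) for 24 other genes of the G1/S transition (x axis), with points for the libraries and black lines for the mean of 3. Cdkn1c and Cdkn2b are at 0 in each library, and Myc has the highest mean, with 21.9, 100 and 98.1%.

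Cdkn1b had the longest total of common regions among the 10 genes, so its pattern was set beside other genes with a 3′UTR length within 20% of its own. Of 1953 such genes, the nearest by Euclidean distance between coverage in the 3 libraries were Rbms1, at 37.6%, 90.6% and 80.6%, Lims1, at 35.8%, 88.3% and 81.7%, and Pum2, at 34.7%, 87.2% and 91.3%. The distances were 6.78, 6.82 and 10.3 percentage points.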

How the data were processed

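N2A cells (1 group, 3 libraries) were profiled by Ago2 HITS-clip. The authors deposited 1 table with the peaks of all libraries, giving position, strand, a score and the sample of each peak. Per the submitters' processing notes FastQC, cutadapt and STAR were used with mm10, the UCSC name of GRCm38. The peak caller, its threshold and the unit of the score are not given in the sources used here. The deposited score was 60 for 98.9%, 99.3% and 99.6% of peaks and was not used. Starts went down to -30 and mitochondrial stops to 16329, past the chromosome end, so peaks were read as padded by 30 nt on each side, with starts counted from 0. There were 0 further columns of sample values. Only peaks on the 21 nuclear chromosomes entered the overlaps, which set aside 430, 276 and 315 peaks by replicate.

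The 3′UTR was the longest of any protein-coding transcript in GENCODE M21, without the stop codon. A peak touched it with at least 1 nt on the same strand. Peaks were assigned by midpoint to 3′UTR, coding sequence, 5′UTR, other exon or intron, in this order. Common regions were at least 8 nt under a peak in all 3 libraries. A seed match counted as covered only when all its bases were under peaks of that library. The inner part of a peak leaves out 30 nt on each side, and an arm had a peak when at least 15 nt of it lay in this part. Sequences and miRNAs came from RefSeq on GRCm38.p6.

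All 10 genes are named. Matches of 7 nt or more under peaks in at least 2 libraries are named for the 3 families, and windows were to be printed for matches under peaks in all 3. The windows of the other matches, the shorter matches and the miR-26 and miR-34 matches were chosen for the text after their values were seen. Of the listed cell type markers, 2 are not reported here. Genes and lists were chosen with earlier results of these data known. The alternatives were each library left out, peaks of 86 to 200 nt, trimmed peaks, 2 libraries, merged 3′UTR exons, overlap, strand, site type and assignment. The functions were tested on simulated data. Wilson intervals (95%) cover the counting of peaks or matches only. The software was Python 3.11.15 with pandas 2.3.3, numpy 2.4.6, matplotlib 3.10.9 and scipy 1.17.1.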

Additional observations from a re-analysis of the deposited data

How the results depend on the processing

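Of 71 values recomputed under alternatives, 54 stayed within the spread or within 1.5 times the reported count and 17 moved. When any 2 libraries sufficed, a looser rule, there were 10 genes with a common region, 73 regions, 5 miR-15/16 and 4 miR-17 matches in them. With peaks of 86 to 200 nt, where fewer peaks were used, there were 6 regions. On the opposite strand the 3′UTR of 0 genes was touched in every library, 0 had a common region and there were 0 regions, the 3′UTR share was 4.66% and the covered length 8.38%. Trimming peaks by 30 nt on each side gave a covered length of 17.3% against 30.1% and left 0 miR-17 matches in common regions, 8mers alone left 0, and matches of 6 nt or longer gave 1 for miR-15/16.

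Leaving out each replicate gave 7 to 9 genes with a 3′UTR peak, 7 to 9 with a common region, 28 to 63 regions, 0 to 4 miR-15/16, 1 to 4 miR-17 and 0 let-7 matches, a 3′UTR share of 25.7 to 38.7% and a covered length of 25.1 to 38.9%. The highest of each came without replicate 1: 63 regions, 4 miR-15/16 and 4 miR-17 matches. The cause was not tested. No paired analysis was possible because there is no second group to pair with. Read depth is unknown and limits what the lack of a peak can show.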
